A study of Mus musculus with 12 samples.

Results

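The genotype dependence of the early activation response was measured in 8 of the 12 libraries of the series: naive CD4+ T cells, wild-type (WT) or knockout for Ddx55 (KO), before stimulation (0 h) and after 8 h of it, with 2 libraries in each of the 4 groups. For every gene the WT response is the log2 change from 0 h to 8 h in WT cells, and the KO response is the same change in KO cells. The difference between them, KO response minus WT response, is the quantity reported here, and the members are these 8 libraries, chosen by genotype and time alone. The cells were mouse CD4+ T cells of spleen and pLN, stimulated with plate-bound antibodies against CD3 at 5 ug/ml and against CD28 at 2.5 ug/ml. The knockout libraries differ from WT in Ddx55 only, as far as the labels say, and no source used here gives how the gene was deleted, in which cells, or the age of the mice. Whether a group's 2 libraries are from separate mice is not labelled either, so p-values measure the spread between these libraries, which may be technical. The 4 libraries of 24 h entered the fit to estimate that spread, and they also entered the gene filter and the scaling of the libraries. They are in none of the differences reported here.

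A naive T cell is a small resting lymphocyte. Signals through its antigen receptor and the costimulatory receptor CD28 first switch on immediate early transcription factors, then ribosome production, metabolism and protein folding capacity, and later the genes of DNA replication and division. Ddx55 encodes a DEAD-box RNA helicase, one of a family whose members remodel RNA and RNA-protein complexes, many of them in ribosome assembly. Chaperones of the HSP70 and HSP90 families fold newly made proteins in the cytosol, the chaperones of the unfolded protein response do so in the endoplasmic reticulum, and p53 is a transcription factor that responds to DNA damage and other stress by restraining growth.

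The gene counts of the 8 libraries summed to between 16810375 and 19126498. Ddx55, on chromosome 5 (chr5:124552864-124569660), checked the genotype labels: it was at 45.3 and 51.1 CPM in WT at 0 h, 68.7 and 64.05 in WT at 8 h, 19.5 and 18.9 in KO at 0 h, and 17.9 and 17.1 in KO at 8 h, where CPM are counts scaled to library size. All 4 KO libraries lay below all 4 WT libraries, and transcripts of the gene were still counted in KO. Its level rose in WT (log2 0.46 ± 0.10, adjusted p = 0.000911) and was -0.13 ± 0.11 in KO (adjusted p = 0.299). The difference between responses, -0.59 ± 0.15, missed the threshold (adjusted p = 0.0768). Cd4 was at 1000.4 and 1048 CPM in WT and 1046 and 1043 CPM in KO at 0 h, and Cd8a was under 3 CPM in every library. The 20 T cell identity genes, Cd4 among them, summed to at least 9895 CPM in each of the 8 libraries. The T cell label therefore matched these markers, which do not check the naive label. Markers of B cells, plasma cells, myeloid cells, granulocytes, basophils and mast cells, eosinophils, blood progenitors, NK and CD8 T cells, erythroid cells, regulatory T cells and stroma were summed over the 139 of 172 that were tested. They made up 2609 and 1831 CPM in WT at 0 h and 4198 and 3871 CPM in KO at 0 h, against 2098 and 1964 in WT and 2784 and 3079 in KO at 8 h. Thus their sum was higher in both KO libraries than in both WT libraries at each time, with the wider gap at 0 h. Single lists differed: eosinophil genes summed to 20.5 and 3.37 CPM in WT and 203 and 228 in KO at 0 h. Neutrophil genes summed to 77.6 and 27.8 against 575 and 571, and basophil genes to 86.0 and 58.9 against 418 and 932. B cell, plasma cell, erythroid and stromal sums overlapped at 0 h. Regulatory T cell markers rose from 125 and 111 CPM to 1043 and 1107 in WT, and from 153 and 155 to 1279 and 1280 in KO. They were a large part of the 8 h sums. Those sums therefore hold genes that rose with stimulation, and do not measure the content of other cells alone. In bulk samples like these, fewer cells of a type and less RNA per cell cannot be told apart.

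Most of the early response was shared between the genotypes, and 156 of 15679 genes tested (0.995%) responded differently. In WT cells 9709 genes changed between 0 h and 8 h (61.9%), 28.3% rising and 33.6% falling. In KO cells 9646 did (61.5%), 28.6% rising and 32.9% falling. Of the genes that rose, 3863 did so in both genotypes, 86.95% of the WT list and 86.02% of the KO list, and of those that fell 4363 were shared, 82.85% and 84.64%. These 2 responses have no library in common. Across genes the WT and KO responses had a Pearson r of 0.8627 and a Spearman rho of 0.8869, and r was 0.9685 over the 9588 genes with a mean of at least 5 CPM. Genes are not independent replicates, and these correlations are descriptions.

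For most of these genes the KO response was the lower one: it was lower for 115 (0.733% of genes tested) and higher for 41 (0.261%), at an adjusted p under 0.05 in edgeR's quasi-likelihood test. Of the 115, 66 had positive mean responses in both genotypes with the smaller one in KO, 40 had a positive WT and a negative KO response, and 9 had negative responses in both. Their median difference was -1.28. Of the 41, 19 had positive mean responses in both with the larger one in KO, 13 had a positive KO and a negative WT response, and 9 had negative responses in both. Their median difference was 0.92. The median over all genes tested was 0.03. DESeq2 on the same counts called 299 genes (1.91%), 59 higher (0.376%) and 240 lower (1.53%), and 151 of the 156 were among them. The count depends on the libraries: 60 genes passed when the fit held the 8 libraries alone, 57 of them among the 156, and between 48 (without WT 8 h library 1) and 317 (without KO 0 h library 2) when 1 library was left out.

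**Figure D1:**
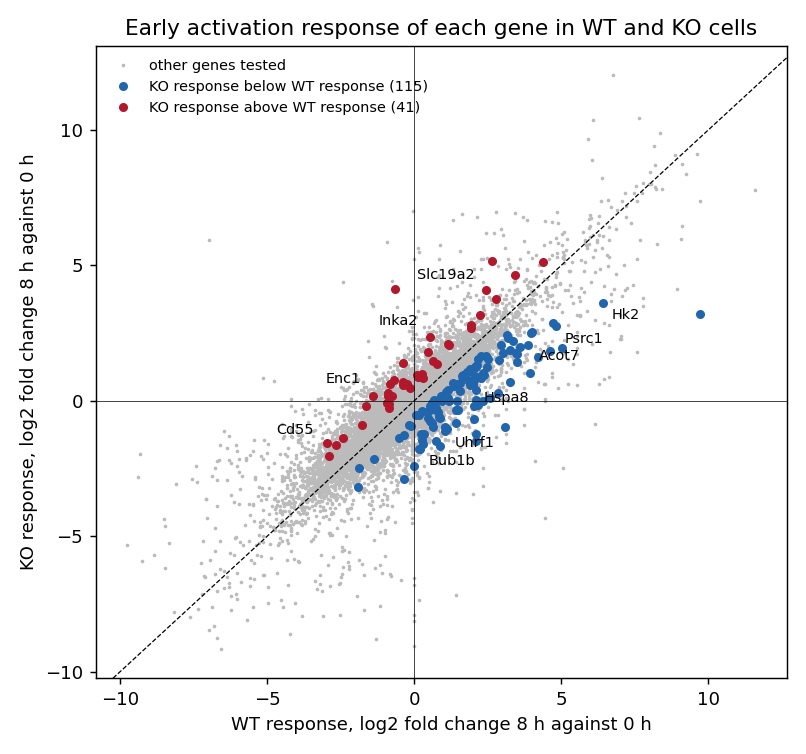
Log2 change from 0 h to 8 h in WT cells (x axis) and in KO cells (y axis) for each of the 15679 genes tested; the dashed line marks equal responses. The cloud follows the line, with 115 genes called below it (blue) and 41 called above it (red).

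For the genes with a lower KO response, the genotypes differed more before stimulation than after it. In 94 of the 115 the KO against WT difference was larger in size at 0 h than at 8 h. KO lay above WT at 0 h and below it at 8 h in 96, and above at both times in 19. The genes with a higher KO response showed the reverse: in 31 of the 41 the larger genotype difference was at 8 h, and KO lay below WT at 0 h and above it at 8 h in 27. These counts describe means that the difference between responses is itself built from, so they carry no test. With 2 libraries per group, the WT and KO libraries of 43.09% of all genes tested did not overlap at 0 h, and of 43.5% at 8 h. A lack of overlap, where given below for a gene or a sum, is thus common at a single time and describes the values only. The comparisons at each time alone called 893 genes at 0 h (5.7%), 726 higher (4.63%) and 167 lower (1.07%) in KO, and 415 at 8 h (2.65%), 298 higher (1.9%) and 117 lower (0.746%).

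**Figure D2:**
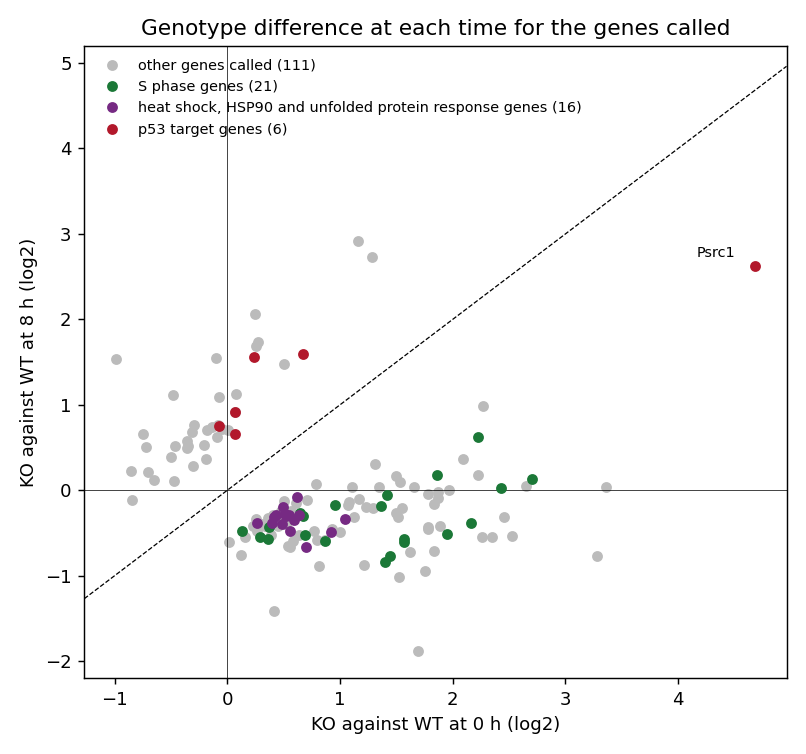
Log2 KO against WT at 0 h (x axis) and at 8 h (y axis) for 154 of the 156 genes whose response differed, with 2 genes left out that have a difference between responses over 4.5 in size (Galnt3 and Il17f, both with counts near 0 in one group); the dashed line marks an equal difference at both times. S phase genes and chaperone genes sit right of the vertical axis and mostly under the horizontal one, whereas 5 of 6 p53 target genes sit above the dashed line.

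Genes of DNA replication made up the group with the most calls: the KO response was lower for 21 of 51 S phase genes tested (41.2%, against 0.733% of all genes) and higher for 0. All 51 had a difference below 0, with a median of -0.80, where 7202 of all 15679 genes did. In WT cells the list's median response was 0.48, with 26 members rising and 10 falling, and in KO cells it was -0.53, with 6 rising and 31 falling. Before stimulation 21 members were higher in KO, where 4.63% of all genes were, and 0 lower (median 0.42). At 8 h 7 were lower in KO, where 0.746% of all genes were, and 0 higher (median -0.27). The list summed to 1501 and 1458 CPM in WT and 1854 and 1681 in KO at 0 h, and to 1988 and 1968 in WT and 1601 and 1547 in KO at 8 h, so the order of the genotypes switched between the times without overlap. In a fit of the 8 libraries alone 9 members were called, and 12 without WT 8 h library 1. Markers of other cells, given above, were also higher in KO at 0 h, and their part in these values was not tested.

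Uhrf1, which recognises hemimethylated DNA and guides maintenance methylation behind the replication fork, had the smallest p of all genes tested. Transcripts of the gene (chr17:56303321-56323486, plus strand) were counted at 9.85 and 7.397 CPM in WT at 0 h, 18.1 and 17.9 in WT at 8 h, 27.4 and 23.9 in KO at 0 h, and 11.1 and 12.5 in KO at 8 h. Both KO libraries were above both WT libraries at 0 h and below them at 8 h. The level rose in WT (log2 1.06 ± 0.13) and fell in KO (-1.12 ± 0.13), a difference of -2.18 ± 0.18 (adjusted p = 0.000123). Mcm5, a subunit of the replicative helicase (chr8:75109569-75128439, plus strand), was at 48.03 and 44.3 CPM in WT at 0 h, 140.2 and 132 in WT at 8 h, 78.9 and 69.6 in KO at 0 h, and 97.5 and 92.6 in KO at 8 h. Both genotypes rose, KO from a higher start to a lower level (difference -1.20 ± 0.13, adjusted p = 0.000537).

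Gins2, a subunit of the GINS complex that completes the same helicase (chr8:120578633-120589304, minus strand), was at 0.708 and 0.962 CPM in WT at 0 h, 5.29 and 4.68 in WT at 8 h, 3.58 and 2.91 in KO at 0 h, and 3.72 and 3.25 in KO at 8 h. It rose in WT by 2.57 and was flat within error in KO (0.11 ± 0.19), a difference of -2.46 ± 0.31 (adjusted p = 0.00172). Exo1, an exonuclease of mismatch repair (chr1:175880581-175913489, plus strand), was at 1.12 and 1.14 CPM in WT at 0 h, 1.98 and 1.81 in WT at 8 h, 3.301 and 2.91 in KO at 0 h, and 1.02 and 1.21 in KO at 8 h. It rose in WT and fell in KO, with no overlap between the genotypes at either time (difference -2.21 ± 0.30, adjusted p = 0.00275). The call of Exo1 was lost in the fit of the 8 libraries alone. Those of Uhrf1, Mcm5 and Gins2 were kept in all 17 alternatives.

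Other subunits of the helicase were called as well. Mcm2 differed by -0.84 ± 0.12, Mcm6 by -0.93 ± 0.14, Mcm3 by -0.80 ± 0.16 and Mcm4 by -0.60 ± 0.12, with adjusted p between 0.00335 (Mcm2) and 0.0299 (Mcm4). Mcm2, Mcm3 and Mcm6 rose in WT cells (1.02, 0.82 and 0.94) and were near 0 in KO cells (0.19, 0.02 and 0.01). Mcm4 was instead flat in WT (0.07, adjusted p = 0.511) and fell in KO (-0.53). Cdc45, the third component of the active helicase, differed by -1.69 ± 0.30, and Gins1 by -2.14 ± 0.46.

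Another set of replication genes had high levels in unstimulated KO cells. Mcm10, which helps to fire origins, was at 1.12 and 0.662 CPM in WT at 0 h, 0.606 and 0.8196 in WT at 8 h, 5.56 and 6.11 in KO at 0 h, and 0.733 and 0.827 in KO at 8 h. Cdc6, which loads the helicase on origins, was at 1.77 and 1.26 CPM in WT at 0 h, 1.38 and 1.64 in WT at 8 h, 9.24 and 7.16 in KO at 0 h, and 1.92 and 1.16 in KO at 8 h. For both genes the KO libraries at 0 h stood alone above the other 6, and the WT response was near 0 (Mcm10 -0.33, Cdc6 -0.01). Their differences were -2.56 ± 0.39 (adjusted p = 0.0054) and -2.40 ± 0.38 (adjusted p = 0.00614). Tyms (thymidylate synthase), Dtl (which targets Cdt1 for destruction), Chaf1a (a histone chaperone of replicated DNA) and E2f1, a transcription factor of the S phase genes, were also higher in KO at 0 h, by 1.37, 2.16, 1.42 and 0.95. Their differences between responses were -1.55, -2.55, -1.48 and -1.12, with adjusted p between 0.00275 and 0.0232. Pole, Rrm1, Lig1 and Orc1, of the leading strand polymerase, ribonucleotide reductase, DNA ligation and origin recognition, were also called, with -1.46, -0.98, -0.92 and -2.24.

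E2F factors bind TTTCGCGC-like sites in promoters of S phase genes, and the promoters were searched for such letters because these genes moved together. RefSeq promoter windows of GRCm38.p6 (250 bases before to 50 after a start) were found for 40 of the 51 S phase genes and for 10454 genes tested. TTTGGCGC or TTTCGCGC, on either strand, was in a window of 13 of the 40 (32.5%), of 7 of the 15 called members with a window (46.7%), and of 186 of the 10454 (1.78%). The stretches of the S phase genes with the smallest p that held a match before the start are shown, with the matched letters in capitals. The Uhrf1 stretch, chr17:56304088-56304175 on the plus strand, ends 138 bases before the RefSeq start and lies in an intron of longer annotated Uhrf1 transcripts. The Mcm5 stretch, chr8:75109316-75109407 on the plus strand, ends 102 bases before the start, and its capitals are 2 overlapping matches on opposite strands. A match is a description of the sequence and not a measured binding site.
Uhrf1: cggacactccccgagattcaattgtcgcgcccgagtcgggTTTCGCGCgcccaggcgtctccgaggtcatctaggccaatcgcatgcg
Mcm5: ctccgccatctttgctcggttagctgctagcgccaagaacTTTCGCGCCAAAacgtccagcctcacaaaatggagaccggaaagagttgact

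Genes of G2 and mitosis went the same way on balance but few passed: the KO response was lower for 3 of 49 (6.12%, against 0.733% of all genes) and higher for 0. The median difference was -0.65, and 41 of 49 lay below 0. Their main feature was at 0 h, where 38 of 49 were higher in KO (median 1.84; 4.63% of all genes were), and at 8 h 3 were (median 0.75; 1.9% of all genes). The list fell in both genotypes, with 25 members falling in WT and 43 in KO. Its sum went from 571 and 478 CPM to 303 and 295 in WT, and from 893 and 853 to 507 and 555 in KO, with no overlap between the genotypes at either time. With DESeq2 8 members were called lower, where 1.53% of all genes were, and with RLE size factors 5. Known promoter elements of this group, TTTGAA (the cell cycle genes homology region) and CCAAT, were in a RefSeq window of 29 and 34 of 42 members (69.0% and 81.0%), against 14.6% and 42.4% of all genes tested, and of 1 and 2 of the 3 called.

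Bub1b, a spindle checkpoint kinase (chr2:118598211-118641591, plus strand), was at 4.01 and 2.71 CPM in WT at 0 h, 4.13 and 3.51 in WT at 8 h, 14.96 and 11.4 in KO at 0 h, and 3.61 and 4.08 in KO at 8 h. The KO libraries at 0 h stood above the other 6 libraries, which overlapped (difference -1.96 ± 0.31, adjusted p = 0.00719). Ncaph, a condensin subunit that compacts mitotic chromosomes, was at 4.37 and 3.73 CPM in WT at 0 h, 7.71 and 7.14 in WT at 8 h, 9.96 and 9.87 in KO at 0 h, and 6.83 and 6.01 in KO at 8 h. It rose in WT and fell in KO (difference -1.50 ± 0.19, adjusted p = 0.00172). Psrc1, the third, is a spindle-associated protein and also a p53 target. It was at 0.708 and 0.962 CPM in WT at 0 h, 21.2 and 25.99 in WT at 8 h, 20.7 and 22.3 in KO at 0 h, and 151 and 139 in KO at 8 h. On the log2 scale its rise was smaller in KO (difference -2.06 ± 0.30, adjusted p = 0.00391), whereas in CPM the KO increase (123) was the larger one (22.7 in WT). Galnt3 was the only other gene of the 115 for which the CPM increase was larger in KO. Without WT 8 h library 1 the call of Bub1b was lost, and without the KO libraries of either number that of Psrc1.

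Chaperones were prominent among the genes with a smaller rise in KO cells. Among 24 dissociation stress and heat shock genes the KO response was lower for 6 (25.0%, against 0.733% of all genes) and higher for 1, Btg2 (4.17% against 0.261%), with a list median of -0.08. The 6 are all chaperones, Hspa8, Hsph1, Dnaja1, Hsp90aa1, Dnajb1 and Hspd1, and apart from these and Btg2 no gene of the list passed. Hspa8, the constitutive HSP70 (chr9:40800984-40810087, plus strand), was at 989 and 1063 CPM in WT at 0 h, 4129 and 3947 in WT at 8 h, 1702 and 1630.1 in KO at 0 h, and 2676 and 2429 in KO at 8 h. Both KO libraries exceeded both WT libraries at 0 h and lay under them at 8 h. The gene rose by 1.98 ± 0.10 in WT and 0.62 ± 0.10 in KO, a difference of -1.36 ± 0.14 (adjusted p = 0.000382). Hsph1, an exchange factor that recharges HSP70, was at 61.4 and 69.1 CPM in WT at 0 h, 485 and 477 in WT at 8 h, 118 and 151 in KO at 0 h, and 404 and 361 in KO at 8 h. Its order also switched without overlap (difference -1.37 ± 0.17, adjusted p = 0.00134). Dnaja1, a J-domain partner of HSP70, was at 203 and 217 CPM in WT at 0 h, 329 and 337 in WT at 8 h, 290.4 and 362 in KO at 0 h, and 274 and 269.6 in KO at 8 h. It rose in WT (0.67) and fell in KO (-0.26), a difference of -0.93 ± 0.15 (adjusted p = 0.00639). Without WT 8 h library 1, 3 of the 6 were called. The calls of Hspa8, Hsph1 and Dnaja1 held in all 17 alternatives.

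Dnajb1, another J-domain protein, differed by -0.70 ± 0.12, and Hspd1, the mitochondrial HSP60, by -0.73 ± 0.16. Hspd1 rose by 3.17 in WT and 2.44 in KO. The stress-inducible HSP70 genes Hspa1a and Hspa1b differed widely between the 2 libraries of a group at 0 h: Hspa1b was at 3.01 and 38.9 CPM in WT and 16.9 and 122 CPM in KO at 0 h. The immediate early genes of this list also differed between replicates, with Fosb at 791 and 118 CPM in the WT libraries of 0 h. Several cytosolic chaperones have processed pseudogenes, and no source used here gives how the authors' counting treated reads with several matches.

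HSP90 and the co-chaperones that act with it were taken as a further list of 21 genes after these values were seen, so its count is not independent of them. The KO response was lower for 7 (33.3%, against 0.733% of all genes) and higher for 0, with a median of -0.48. Hsp90aa1, the inducible cytosolic HSP90, was at 226 and 198 CPM in WT at 0 h, 1227 and 1172 in WT at 8 h, 309 and 329 in KO at 0 h, and 1022 and 863 in KO at 8 h. Its rise was 2.50 in WT and 1.56 in KO (difference -0.94 ± 0.16, adjusted p = 0.00843). Fkbp4, a co-chaperone of steroid receptor complexes, was at 124 and 122 CPM in WT at 0 h, 456 and 406 in WT at 8 h, 194 and 167 in KO at 0 h, and 337 and 281 in KO at 8 h. Both KO libraries were above both WT libraries at 0 h and below them at 8 h (difference -1.04 ± 0.15, adjusted p = 0.00391). Stip1, which passes clients from HSP70 to HSP90, Ptges3 and Ahsa1, which tune the HSP90 cycle, and Cacybp differed by -0.83, -0.78, -0.72 and -0.82. Fkbp5 was flat in WT and fell in KO (difference -0.68 ± 0.13). The count of 7 was 4 in the fit of the 8 libraries, 1 without WT 8 h library 1, 4 without WT 0 h library 2 or WT 8 h library 2, and 11 without the KO libraries numbered 1.

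In the endoplasmic reticulum the same order was seen. The KO response was lower for 4 of 22 unfolded protein response genes (18.2%, against 0.733% of all genes) and higher for 0, and 21 of the 22 had a difference below 0 (median -0.47). The list's median response was 1.27 in WT and 0.62 in KO. Sdf2l1, a component of the chaperone complex of the endoplasmic reticulum (chr16:17130138-17132383, minus strand), was at 9.68 and 8.96 CPM in WT at 0 h, 45.5 and 50.2 in WT at 8 h, 19.3 and 16.1 in KO at 0 h, and 34.5 and 33.6 in KO at 8 h. It had the largest difference of the list, -1.41 ± 0.16 (adjusted p = 0.000946), with KO above WT at 0 h and below it at 8 h in every library. Hsp90b1, the HSP90 of that compartment (chr10:86690209-86705509, minus strand), was at 161 and 159 CPM in WT at 0 h, 462 and 472 in WT at 8 h, 217 and 228 in KO at 0 h, and 373 and 340.2 in KO at 8 h. The genotypes again switched order without overlap (difference -0.87 ± 0.12, adjusted p = 0.00297).

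Calr, a lectin chaperone and calcium store, rose by 1.78 in WT and 0.99 in KO (difference -0.79 ± 0.13, adjusted p = 0.00984). Pdia6, a disulfide isomerase, rose by 2.18 and 1.53 (difference -0.65 ± 0.13, adjusted p = 0.0282). Manf, Pdia3, Xbp1 and Pdia4 lay just outside the threshold, with differences of -0.64, -0.53, -0.72 and -0.58 and adjusted p between 0.0553 and 0.0643. Hspa5, the main HSP70 of the compartment, had a difference of -0.56 ± 0.23 and was not called (adjusted p = 0.373). The WT libraries of 0 h, at 580.2 and 365 CPM, were far apart for this gene. The count of 4 was 12 with DESeq2, 8 with RLE size factors and 2 in the fit of the 8 libraries; it was 2 without WT 8 h library 1, WT 0 h library 2 or WT 8 h library 2, and 8 without KO 0 h library 2. Calr lost its call in 4 of 17 alternatives and Pdia6 in 7, while Sdf2l1 and Hsp90b1 kept theirs in all.

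Promoters of these genes are known for the endoplasmic reticulum stress element, spelled as CCAAT and CCACG with any 9 bases between them, whose first letters are also a CCAAT box. On either strand it was in the window of 8 of 19 genes of the list with one (42.1%), of 3 of the 4 called, and of 19 of 10454 genes tested (0.182%). The Hsp90b1 stretch is shown because this gene had the smallest p among the called members with a match lying before the start and outside annotated exons; it lies at chr10:86705510-86705694 on the minus strand, ends 66 bases before the RefSeq start, and holds 2 matches in capitals, one on each strand. The heat shock element, spelled as GAA, TTC and GAA or as TTC, GAA and TTC with any 2 bases between neighbours, on either strand, was in a window of 3 of 20 heat shock list genes, of 2 of the 4 called members with a window, and of 60 of 10454 genes tested (0.574%). In the list of HSP90 and its co-chaperones the heat shock element was in a window of 1 of 16 genes (6.25%) and of 0 of 6 called members. These motifs were chosen after the values were seen.
Hsp90b1: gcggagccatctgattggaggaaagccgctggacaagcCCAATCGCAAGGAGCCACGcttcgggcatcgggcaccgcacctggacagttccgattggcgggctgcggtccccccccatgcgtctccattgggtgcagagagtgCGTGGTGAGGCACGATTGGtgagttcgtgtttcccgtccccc

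Among single genes with a mean of at least 5 CPM, Hk2 had the smallest p after Uhrf1 and Acot7 in the lower direction. Hk2 (chr6:82725025-82774454, minus strand), the hexokinase that starts glycolysis in activated lymphocytes, was at 1.36 and 1.203 CPM in WT at 0 h, 122 and 97.5 in WT at 8 h, 6.601 and 5.71 in KO at 0 h, and 82.6 and 67.2 in KO at 8 h. It was low in unstimulated WT cells, several times higher in unstimulated KO cells, and lower in KO at 8 h, with no overlap at either time. It rose by 6.41 ± 0.21 in WT and 3.61 ± 0.16 in KO (difference -2.81 ± 0.28, adjusted p = 0.000315). Of 24 glycolysis genes Hk2 and Pgam1, a phosphoglycerate mutase, were called lower (8.33%, against 0.733% of all genes) and 0 higher, with a list median of -0.34. Pgam1 was at 23.1 and 21.8 CPM in WT at 0 h, 127 and 114 in WT at 8 h, 29.7 and 27.4 in KO at 0 h, and 100.5 and 80.3 in KO at 8 h, a difference of -0.76 ± 0.16 (adjusted p = 0.0352) that was lost in 7 of 17 alternatives. Tpi1, Ldha, Pfkl and Eno1 had differences of -1.38, -0.67, -0.54 and -0.73, with adjusted p between 0.0616 and 0.0752, and were not called. DESeq2 called 8 of the list lower, against 1.53% of all genes.

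Acot7, a thioesterase of fatty acyl-CoA (chr4:152178134-152271855, plus strand), was at 7.26 and 5.95 CPM in WT at 0 h, 97.99 and 97.1 in WT at 8 h, 19.97 and 17.8 in KO at 0 h, and 82.7 and 74.1 in KO at 8 h. KO cells started higher and rose less (difference -1.83 ± 0.17, adjusted p = 0.000281). Dnph1, which clears a modified nucleotide from the DNA precursor pool, was at 0.472 and 0.241 CPM in WT at 0 h, 13.7 and 9.72 in WT at 8 h, 1.93 and 2.25 in KO at 0 h, and 10.2 and 6.01 in KO at 8 h. Its difference, -3.07 ± 0.50 (adjusted p = 0.00843), was the most negative among genes of this level, and the genotypes overlapped at 8 h. Spire1, an actin nucleator, differed by -2.77 ± 0.42 (adjusted p = 0.0054), and Tnfrsf21, a death receptor of the TNF family, by -2.60 ± 0.43 (adjusted p = 0.00855). Tnfrsf21 reached 12.7 and 10.8 CPM in WT and 13.5 and 10.8 CPM in KO at 8 h, where the genotypes overlapped. At 0 h it was at 0.826 and 0.421 CPM in WT and 4.95 and 3.01 CPM in KO, without overlap.

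Cell cycle regulators outside the lists were also among the 12 most negative. Wee1, the kinase that holds back Cdk1, was at 1.77 and 0.902 CPM in WT at 0 h, 12.7 and 12.8 in WT at 8 h, 4.07 and 5.46 in KO at 0 h, and 9.31 and 6.34 in KO at 8 h (difference -2.54 ± 0.35, adjusted p = 0.00275). Cks2, a small subunit of cyclin-dependent kinases, was at 5.78 and 2.83 CPM in WT at 0 h, 22.8 and 21.2 in WT at 8 h, 13.9 and 12.6 in KO at 0 h, and 13.7 and 12.96 in KO at 8 h. In WT it rose by 2.35, whereas in KO it stayed at its starting level (0.01; difference -2.34 ± 0.29, adjusted p = 0.00172). Syce2, of the synaptonemal complex, and Ckap4, a membrane protein of the endoplasmic reticulum, had the same shape, with WT responses of 2.10 and 2.18, KO responses of 0.01 and -0.06, and differences of -2.08 ± 0.36 and -2.24 ± 0.36 (adjusted p = 0.0107 and 0.00725). For Cks2 and Ckap4 the KO libraries lay above WT at 0 h and under WT at 8 h without overlap, and so did those of Syce2 and Wee1. Dnph1 and Tnfrsf21 lost the call without WT 0 h library 2, Cks2 without the KO libraries numbered 2, Ckap4 without WT 8 h library 1, and Syce2 without either of WT 8 h library 1 and WT 0 h library 2.

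**Figure D3:**
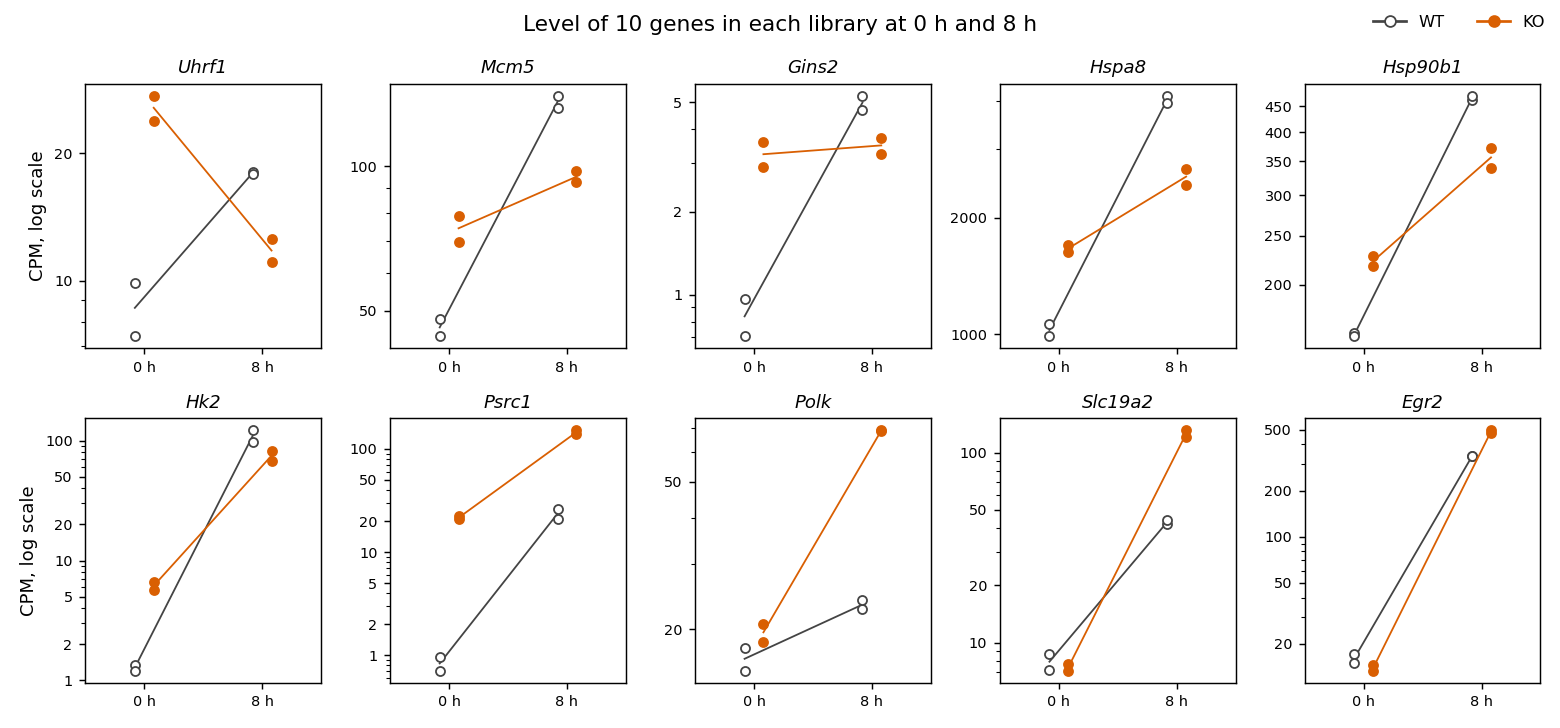
Level in CPM (log scale) of 10 genes in each library at 0 h and 8 h, with WT as open points, KO as filled points and lines joining the 2 group means. For Uhrf1, Mcm5, Gins2, Hspa8, Hsp90b1 and Hk2 the lines cross, with KO above WT at 0 h and below it at 8 h, whereas Polk and Slc19a2 separate at 8 h.

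Genes regulated by p53 were the group with most calls in the other direction. The KO response was higher for 5 of 38 tested (13.2%, against 0.261% of all genes) and lower for 1, Psrc1 (2.63% against 0.733%). The list median was 0.34, and 28 of 38 lay above 0. Before adjustment 12 were higher and 4 lower at p under 0.05, where 837 and 969 of all 15679 genes were. DESeq2 called 6 higher and 3 lower, against 0.376% and 1.53% of all genes. At 8 h 20 of 38 were higher in KO than in WT, where 1.9% of all genes were, and at 0 h 12 were, where 4.63% of all genes were. The list summed to 1562 and 1859 CPM in WT and 1991 and 2248 in KO at 0 h, and to 2551 and 2805 in WT and 4711 and 4609 in KO at 8 h. Polk, a DNA polymerase that copies past damaged bases (chr13:96480690-96542579, minus strand), was at 15.5 and 17.9 CPM in WT at 0 h, 22.7 and 23.9 in WT at 8 h, 18.5 and 20.7 in KO at 0 h, and 68.6 and 68.8 in KO at 8 h. The genotypes lay close together at 0 h, and at 8 h both KO libraries were far above both WT libraries. It rose by 0.48 ± 0.11 in WT and 1.81 ± 0.10 in KO (difference 1.32 ± 0.15, adjusted p = 0.000683). Btg2, which restrains proliferation and promotes mRNA decay, was at 225 and 237 CPM in WT at 0 h, 196 and 196 in WT at 8 h, 221 and 218 in KO at 0 h, and 339.8 and 322 in KO at 8 h. It fell slightly in WT and rose in KO (difference 0.83 ± 0.14, adjusted p = 0.00843).

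Ercc5, the endonuclease of nucleotide excision repair (chr1:44147744-44181260, plus strand), was at 45.5 and 46.4 CPM in WT at 0 h, 24.7 and 23.4 in WT at 8 h, 46.2 and 50.2 in KO at 0 h, and 45.6 and 45.2 in KO at 8 h. At 8 h the WT libraries stood under all others, while KO kept its starting level (difference 0.84 ± 0.14, adjusted p = 0.0105). Zmat3, an RNA-binding p53 target, rose by 1.16 in WT and 2.08 in KO (difference 0.92 ± 0.16, adjusted p = 0.0125), and Mdm2, the ubiquitin ligase that degrades p53, had responses of -0.13 in WT and 0.47 in KO (difference 0.60 ± 0.13, adjusted p = 0.0442). Other members of the list were not called. Cdkn1a, the p21 inhibitor of cyclin-dependent kinases, was at 1.71 and 0.241 CPM in WT at 0 h, 87.96 and 97.7 in WT at 8 h, 8.86 and 12.1 in KO at 0 h, and 474 and 399 in KO at 8 h, a difference of -1.18 ± 0.67 that missed the threshold (adjusted p = 0.559). Its mean went from 0.976 to 92.8 CPM in WT and from 10.5 to 436 CPM in KO, so that in CPM the KO increase was the larger one. Bax had a difference of 0.05 ± 0.17 and Aen of -0.12 ± 0.13. The count of 5 was 3 in the fit of the 8 libraries and without WT 0 h library 1 or WT 8 h library 2, and 1 without WT 8 h library 1. Polk kept its call in all 17 alternatives, Btg2 in 16 and Ercc5 in 13.

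Of the 37 early response genes of the T cell receptor, 2 had a higher KO response (5.41%, against 0.261% of all genes) and 0 a lower one, with a list median of 0.21. Both are transcription factors of the Egr family that follow calcium and MAP kinase signals and restrain later activation. Egr2 (chr10:67535475-67542188, plus strand) was at 17.2 and 14.97 CPM in WT at 0 h, 337 and 335 in WT at 8 h, 13.3 and 14.5 in KO at 0 h, and 493 and 478 in KO at 8 h. KO lay under WT at 0 h and above it at 8 h in both libraries (difference 0.74 ± 0.15, adjusted p = 0.0299). Egr3 was at 32.8 and 30.2 CPM in WT at 0 h, 204 and 227 in WT at 8 h, 23.05 and 22.7 in KO at 0 h, and 266 and 351 in KO at 8 h, with KO under WT at 0 h and above it at 8 h (difference 0.98 ± 0.17, adjusted p = 0.013). Egr1 had a difference of 0.62 ± 0.18 and was not called (adjusted p = 0.148). The call of Egr2 was lost in 8 of 17 alternatives and that of Egr3 in 3. The summed level of this list differed between the WT libraries of 0 h (10950.0 and 5222 CPM), mostly through immediate early genes such as Junb and Fosb.

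Cytokines and chemokines gave 1 call among 28 (3.57%, against 0.261% of all genes). Before adjustment 3 members were higher and 5 lower in the KO response at p under 0.05, where 837 and 969 of all 15679 genes were. DESeq2 called 0 higher and 2 lower, against 0.376% and 1.53% of all genes. The call was Il17f, the interleukin 17F gene, whose KO response was higher and to which DESeq2 gave no adjusted p. It rested on few reads: 9, 9, 8, 4, 2, 1, 34, 20 counts in WT 0 h, WT 8 h, KO 0 h and KO 8 h, in pairs of libraries in that order (adjusted p = 0.0308), and the call was lost in 10 of 16 alternatives. Ccl4, a chemokine of activated lymphocytes and myeloid cells, was at 0.413 and 0.421 CPM in WT at 0 h, 63.6 and 54.3 in WT at 8 h, 4.79 and 2.705 in KO at 0 h, and 134 and 107 in KO at 8 h, and its difference of -2.10 ± 0.47 was not called (adjusted p = 0.0639).

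Of 35 naive and quiescence genes 2 had a higher KO response (5.71%, against 0.261% of all genes) and 0 a lower one (median 0.15): Btg2, given above, and Foxo3. Foxo3, a transcription factor of the FOXO family that is held inactive by growth signals, was at 116 and 106 CPM in WT at 0 h, 59.5 and 64.3 in WT at 8 h, 105 and 103 in KO at 0 h, and 87.5 and 103 in KO at 8 h. It fell in WT (-0.84) and was -0.12 in KO (difference 0.71 ± 0.13, adjusted p = 0.0199, lost in 5 of 17 alternatives). Ccr7, a homing receptor of naive cells, was at 482 and 548 CPM in WT at 0 h, 603 and 619 in WT at 8 h, 441 and 387 in KO at 0 h, and 483 and 443 in KO at 8 h, and its difference between responses was -0.09 ± 0.20 (adjusted p = 0.916).

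Among the other genes with the most positive differences, Slc19a2, a thiamine transporter (chr1:164249046-164265385, plus strand), had the smallest p. It was at 7.14 and 8.72 CPM in WT at 0 h, 42.03 and 44.4 in WT at 8 h, 7.096 and 7.71 in KO at 0 h, and 131 and 121 in KO at 8 h. The genotypes overlapped at 0 h, and at 8 h both KO libraries were well above both WT libraries (difference 1.64 ± 0.17, adjusted p = 0.000315). Inka2, an inhibitor of the kinase PAK4, was at 10.3 and 11.1 CPM in WT at 0 h, 15.3 and 15.5 in WT at 8 h, 13.3 and 12.02 in KO at 0 h, and 66.95 and 61.2 in KO at 8 h. It was the most positive difference among genes with a mean of at least 5 CPM (1.81 ± 0.26, adjusted p = 0.00403), with libraries close together in the other 3 groups. Crtam, an adhesion molecule of activated T cells, was at 11.1 and 9.44 CPM in WT at 0 h, 117 and 102 in WT at 8 h, 6.49 and 6.01 in KO at 0 h, and 176 and 136 in KO at 8 h, with KO below WT at 0 h and above it at 8 h (difference 1.23 ± 0.20, adjusted p = 0.00725).

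A further set fell in WT and was kept in KO. Enc1, a kelch-repeat protein, was at 66.2 and 83.4 CPM in WT at 0 h, 21.8 and 34.8 in WT at 8 h, 52.3 and 54.999 in KO at 0 h, and 62.8 and 59.9 in KO at 8 h. The KO response was 0.19 ± 0.17, against -1.40 ± 0.18 in WT (difference 1.60 ± 0.25, adjusted p = 0.0107). Zfp365, a zinc finger protein, was at 14.5 and 14.3 CPM in WT at 0 h, 3.86 and 5.33 in WT at 8 h, 16.2 and 18.6 in KO at 0 h, and 16.3 and 14.2 in KO at 8 h. At 8 h the 2 WT libraries stood under all others (difference 1.46 ± 0.23, adjusted p = 0.00725). Calhm2, of the CALHM ion channel family, and Dennd2c, of the DENN family of Rab exchange factors, had the same shape at lower levels, with differences of 1.17 ± 0.23 and 1.05 ± 0.23 (adjusted p = 0.0273 and 0.0456). Dennd2c kept its call in 3 of 17 alternatives, Calhm2 in 8, Enc1 in 12 and Zfp365 in 16.

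Orai2, a subunit of the store-operated calcium channel, fell in both genotypes. It was at 309.5 and 299 CPM in WT at 0 h, 55.6 and 57.1 in WT at 8 h, 258 and 236 in KO at 0 h, and 88.3 and 103 in KO at 8 h. KO ended higher than WT in both libraries (difference 1.07 ± 0.14, adjusted p = 0.00275), and this call held in all 17 alternatives. Cd55, a surface inhibitor of complement, was at 93.1 and 85.4 CPM in WT at 0 h, 10.6 and 12.2 in WT at 8 h, 48.2 and 57.9 in KO at 0 h, and 14.3 and 21.5 in KO at 8 h. KO started lower and ended higher without overlap at either time (difference 1.40 ± 0.26, adjusted p = 0.0249). The call of Cd55 was kept in 11 of 17 alternatives. Rgs12, which switches off G protein signals, and Zkscan8, a zinc finger protein, fell in WT and rose in KO, each past the threshold. Rgs12 was at 4.37 and 6.19 CPM in WT at 0 h, 2.42 and 4.22 in WT at 8 h, 14.03 and 11.7 in KO at 0 h, and 20.5 and 23.3 in KO at 8 h, with KO above WT throughout (difference 1.44 ± 0.32, adjusted p = 0.0474). Zkscan8 was at 38.8 and 39.3 CPM in WT at 0 h, 28.3 and 31.7 in WT at 8 h, 17.9 and 25.1 in KO at 0 h, and 31.8 and 38.3 in KO at 8 h, with KO below WT at 0 h (difference 1.08 ± 0.21, adjusted p = 0.0227). They kept their calls in 7 and 11 of 17 alternatives.

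Ribosome biogenesis factors, activation receptors and transporters, cytosolic ribosomal proteins, interferon-stimulated genes and oxidative phosphorylation genes gave 0 calls in edgeR's quasi-likelihood test. All 73 ribosome biogenesis factors tested rose in both genotypes, with median responses of 1.97 in WT and 1.88 in KO. Their median difference was -0.10, and 54 lay below 0. An unadjusted p under 0.05 was reached by 0 in the higher and 3 in the lower direction, and DESeq2 called 0. Of all 15679 genes, 837 and 969 reached it in these directions, and DESeq2 called 0.376% higher and 1.53% lower. Activation receptors and transporters rose by a median of 1.79 in WT and 1.83 in KO, with 24 and 26 of 30 members rising. Without adjustment, 5 were higher and 3 lower in the KO response at p under 0.05, and DESeq2 called 1 lower. The 78 cytosolic ribosomal proteins had a median difference of 0.14 and 74 lay above 0, with 0 past an unadjusted p of 0.05 and 0 called by DESeq2. The 73 interferon-stimulated genes, of which 60 fell in WT and 61 in KO, had a median of -0.10, with 3 higher and 4 lower before adjustment and 1 lower called by DESeq2. Nuclear-encoded oxidative phosphorylation genes, with 0 of 63 called, had a median of -0.19 and 61 of 63 below 0. Before adjustment 0 were higher and 6 lower, and DESeq2 called 0.

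Markers of other cells differed between genotypes but their responses were not called different. Of the 139 tested, 50 were higher in KO at 0 h (median 1.76) and 18 at 8 h (median 1.18), where 4.63% and 1.9% of all genes were. The difference between responses had a median of -0.04 and 0 calls. Before adjustment 5 were higher and 11 lower at p under 0.05, where 837 and 969 of all 15679 genes were. DESeq2 called 1 higher and 3 lower, against 0.376% and 1.53% of all genes. For the 20 T cell identity genes the median was 0.10, with 0 called, 0 higher and 1 lower before adjustment, and 0 called by DESeq2. Of 23 memory-like T cell genes tested, 11 were higher and 0 lower in KO at 0 h (median 1.26). Their difference between responses had a median of -0.11 and 0 calls. The part of such cells in the values at 0 h was not tested.

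**Figure D4:**
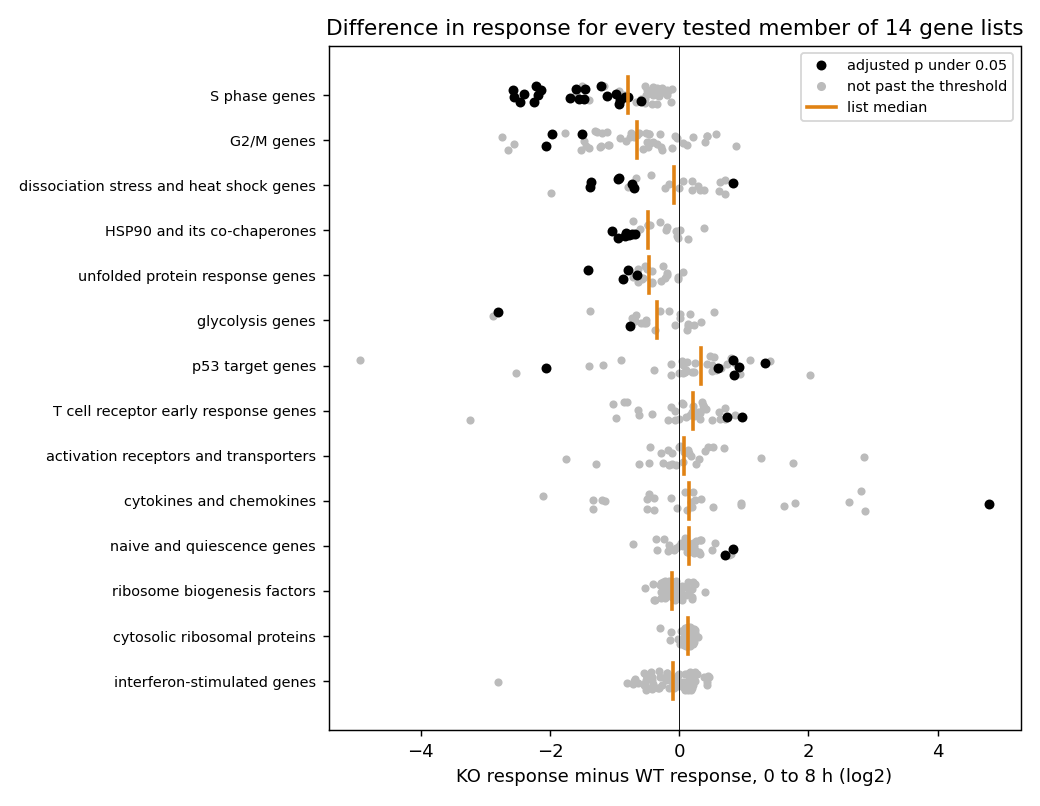
KO response minus WT response (log2, x axis) for every tested member of 14 gene lists, with black points past an adjusted p of 0.05, grey points not past it and orange bars at the list medians. All 51 S phase genes lie left of 0 and 21 of them are black. Ribosome biogenesis factors (54 of 73 below 0) and ribosomal proteins (74 of 78 above 0) sit in narrow bands near 0, with no black point.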

How the data were processed

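Total RNA of naive CD4+ T cells was depleted of ribosomal RNA and sequenced as stranded, paired reads, per the labels' protocols. The authors deposited whole-number gene counts, without normalization, in 1 column per library; the submitters' processing notes name fastp 0.12.4, STAR 2.7.1a and mm10. Their parameters, the counter, its use of strand and molecular identifiers, and its handling of reads with several matches are given in no source used here. A deposited table of repeat loci was not used here.

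The 54232 genes were matched to GENCODE M21 (54079 had a symbol) and filtered by edgeR's filterByExpr (minimum count 10 and minimum total 15, by group), leaving 15679. All 12 libraries entered 1 quasi-likelihood fit (edgeR 4.0.16, R 4.3.3, robust, TMM factors between 0.974 and 1.044 in the 8 libraries, 6 residual degrees of freedom). Tests were two-sided and called at 0.05 after Benjamini-Hochberg adjustment over all genes; every adjusted p in the text is from this fit unless another is named. CPM are scaled by TMM, and coordinates span the whole gene in GRCm38. A value after ± is the size of the log2 value divided by the square root of its quasi-likelihood F. It stands for a standard error (SE) that was not estimated directly. DESeq2 1.42.0, other filters, RLE factors, the 8 libraries alone, a replicate block and leaving out libraries were the alternatives. The fitting procedure was tested on simulated data. The replicate pairs all differed beyond counting noise, with a chi-square per gene between 5.497 and 26.42.

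The comparison, the lists and the naming rule were chosen with earlier results of these data known. The rule takes Ddx55, the 12 most positive and 12 most negative differences among called genes with a mean of at least 5 CPM, and up to 4 called members with the smallest p from each list. Other members are given as values of their list, chosen after those values were seen.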

Additional observations from a re-analysis of the deposited data

Results flagged for a closer look

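The genotypes differed in their response to stimulation by a test of the difference itself (edgeR's quasi-likelihood interaction) for 156 genes, and 7 of the 43 named genes changed past the threshold in opposite directions in WT and KO. Uhrf1 (difference -2.18), Exo1 (-2.21), Ncaph (-1.50) and Dnaja1 (-0.93) rose in WT and fell in KO. Rgs12 (1.44), Zkscan8 (1.08) and Btg2 (0.83) fell in WT and rose in KO. With 2 libraries per group no group was large enough to look for a single outlying library.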

How the results depend on the processing

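The direction of the difference was the same for all 43 named genes under every alternative run. They kept their side of the threshold in 616 of 730 results, lost the call in 113 and gained it in 1 (Ddx55, adjusted p = 0.0397 with DESeq2). The count of 156 genes was 178 with RLE factors, 299 with DESeq2, 445 without a filter, 163 with a filter of at least 1 CPM in at least 2 libraries, 60 with the 8 libraries alone, and 304 and 284 without the KO libraries numbered 1 and 2. Leaving out 1 library gave between 48 and 317, with 85.42% and 61.83% of the calls in the lower direction at those ends, against 73.72%. Dropping marker genes of other cells gave 176, and no scaling moved the median of all genes by 0.1 or more.

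The S phase count of 21 was 9 with the 8 libraries alone and between 12 and 24 without 1 library. The heat shock count of 6 was between 3 and 7. The HSP90 count of 7 was 4 with the 8 libraries, 11 without the KO libraries numbered 1, and between 1 and 10 without 1 library. The unfolded protein response count of 4 was 8 with RLE factors, 12 with DESeq2, 10 without a filter, 7 with the CPM filter, 2 with the 8 libraries, 8 without the KO libraries numbered 2, 7 without marker genes, and between 2 and 8 without 1 library. The G2/M count of 3 was 5 with RLE factors, 8 with DESeq2, 13 without a filter, 8 without the KO libraries numbered 2 and 5 without marker genes. The p53 count of 5 was 8 without a filter, 3 with the 8 libraries, and between 1 and 5 without 1 library.

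KO against WT at 0 h (893) gave 1895 without the KO libraries numbered 2 and between 348 and 1079 without 1 library. At 8 h (415) it gave 669 with DESeq2, 862 without a filter, 1215 without the KO libraries numbered 1, and between 103 and 568 without 1 library. Leaving out the KO libraries of a number removed those of 0 h, 8 h and 24 h. Fits with libraries left out have fewer residual degrees of freedom, and each was filtered and scaled anew. In a group left with 1 library, that library is assumed to vary like the others. The cause of the other shifts was not tested.

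Replicate numbers are shared across groups. Deviations of same-numbered libraries correlated between 0.096 and 0.288 over the 6 pairs of 0 h and 8 h groups. All 6 were above 0, and 5 were over 0.1. Over all 15 pairs the correlations lay between -0.1 and 0.288. The main fit did not take the numbers as pairing, and the source of these correlations was not tested. With the replicate number as a block the count of 156 was 231, of which 153 were among the 156; KO against WT at 8 h gave 669, the unfolded protein response list 8 and the G2/M list 5. With 2 libraries per group, genes with small counts and small differences are below what this design resolves.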

Other observations

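Cell cycle and growth regulators outside the gene lists were also called, and those given here were chosen after their values were seen. Chek1, the checkpoint kinase of stalled replication forks, was at 1.53 and 0.962 CPM in WT at 0 h, 5.62 and 4.63 in WT at 8 h, 3.301 and 5.26 in KO at 0 h, and 3.61 and 3.97 in KO at 8 h (difference -2.21 ± 0.34, adjusted p = 0.00597). It rose in WT and stayed near its higher starting level in KO. Ccnf, an F-box protein of G2, differed by -1.76 ± 0.29, Hells, a chromatin remodeller of DNA methylation, by -1.23 ± 0.20, and Cdca7, its activating partner, by -1.16 ± 0.18. Cdk6, a kinase of the G1 phase, was at 27.1 and 26.4 CPM in WT at 0 h, 91.8 and 107 in WT at 8 h, 61.998 and 88.9 in KO at 0 h, and 105 and 119 in KO at 8 h, so KO began near the WT level of 8 h and the genotypes overlapped at 8 h (difference -1.32 ± 0.20, adjusted p = 0.00559). Tfdp1, the DNA-binding partner of E2F factors, differed by -0.63 ± 0.13.

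The transcription factor Zeb2 and the RNA-binding protein Ybx3 had a shape in which both genotypes ended together. Zeb2 was at 2.54 and 2.59 CPM in WT at 0 h, 30.8 and 26.3 in WT at 8 h, 11.8 and 10.2 in KO at 0 h, and 43.4 and 30.3 in KO at 8 h (difference -1.73 ± 0.30, adjusted p = 0.0125), with overlap at 8 h and none at 0 h. Ybx3 was at 16.3 and 11.9 CPM in WT at 0 h, 406 and 332 in WT at 8 h, 56.9 and 40.1 in KO at 0 h, and 424 and 292 in KO at 8 h (difference -1.82 ± 0.32, adjusted p = 0.0308). Xpo1, the nuclear export receptor, showed the reverse: it was at 194 and 198 CPM in WT at 0 h, 227 and 241 in WT at 8 h, 183 and 213 in KO at 0 h, and 158 and 150.3 in KO at 8 h, alike at 0 h and lower in both KO libraries at 8 h (difference -0.62 ± 0.13, adjusted p = 0.0416).

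Among genes with a higher KO response, Gpr174, a receptor for lysophosphatidylserine that restrains T cells, was at 83.4 and 87.4 CPM in WT at 0 h, 304 and 341 in WT at 8 h, 47.6 and 61.5 in KO at 0 h, and 341 and 361 in KO at 8 h. KO lay below WT at 0 h and the genotypes met at 8 h (difference 0.77 ± 0.16, adjusted p = 0.0308). Bach1, a repressor of heme and oxidative stress genes, was at 44.7 and 42.3 CPM in WT at 0 h, 90.8 and 109 in WT at 8 h, 30.1 and 38.02 in KO at 0 h, and 134 and 153 in KO at 8 h, with KO higher at 8 h in both libraries (difference 0.87 ± 0.19, adjusted p = 0.0396).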
